A study of Homo sapiens with 4 samples.

Results

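The NRF2 antioxidant response was followed through 9 genes in LNCaP cells treated with androgen, with and without the KDM5 inhibitor CPI-455. They are the transcription factor NFE2L2 (NRF2), its inhibitor KEAP1 and the target genes HMOX1, NQO1, GCLM, GCLC, SRXN1, TXNRD1 and SLC7A11, taken by symbol from the 60675 annotated genes of the count files. All 9 were found and all 9 passed the filter on low counts, which left 17600 genes tested. With CPI-455, KEAP1, SLC7A11, TXNRD1 and SRXN1 fell by at least 2-fold in the main setting, and NFE2L2 rose by a smaller factor. After removal of a trend with exon length and GC content, the fall of TXNRD1 was under 2-fold and the rise of NFE2L2 was past it. The fall of SRXN1 rested on 11 and 1 fragments in the CPI-455 libraries. In the main setting HMOX1 was lower by less than 2-fold. Its FDR (the adjusted p-value) passed under some processing settings and not under others. NQO1, GCLM and GCLC did not pass the test in the main setting, though NQO1 and GCLM passed it in some others that used every library. GCLC passed it in none of those, and its change depended on which CPI-455 library was left out.

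LNCaP is an androgen-responsive human prostate cancer cell line that came from a lymph node metastasis. All 4 cultures received 1 nM R1881, a synthetic androgen, for 72 h in medium whose serum had been depleted of hormones. One group of 2 replicates received R1881 with vehicle (DMSO, the solvent of CPI-455) and the other group of 2 received R1881 with 50 µM CPI-455, so the effect of androgen itself was not measured. CPI-455 blocks the KDM5 enzymes, which remove methyl groups from lysine 4 of histone H3, and the comparison asks how gene expression under androgen changes when they are inhibited.

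In unstressed cells the KEAP1 protein holds NRF2 and presents it to a CUL3 ubiquitin ligase, so that NRF2 is made and destroyed continuously. Oxidants and electrophiles modify cysteines of KEAP1, NRF2 escapes destruction, enters the nucleus and binds antioxidant response elements (AREs) together with a small MAF protein. The genes it activates make and use glutathione, reduce oxidised thioredoxin and quinones, break down haem, and supply NADPH. NRF2 activity is set largely by the stability of the protein, which an mRNA count does not measure.

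The core of an ARE, TGACNNNGC, was looked for on both strands of the RefSeq promoter windows of build GRCh38.p14, which run from 250 bases before to 50 bases after each gene start. Of the 9 genes, 7 have such a window, all but HMOX1 and SLC7A11, and the core stood in the windows of KEAP1, GCLM and TXNRD1. These matches are shown because an ARE is the DNA element through which NRF2 acts. The capitals mark the 9 letters of the match, with 10 flanking bases on each side. Each line gives the strand on which the letters read 5′ to 3′.
KEAP1, chr19:10502784-10502812, plus strand: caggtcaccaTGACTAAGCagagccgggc
KEAP1, chr19:10502807-10502835, minus strand: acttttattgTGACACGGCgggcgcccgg
GCLM, chr1:93909446-93909474, plus strand: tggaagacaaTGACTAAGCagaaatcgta
TXNRD1, chr12:104215670-104215698, plus strand: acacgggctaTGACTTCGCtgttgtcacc
TXNRD1, chr12:104215761-104215789, minus strand: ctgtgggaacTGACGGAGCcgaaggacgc
TXNRD1, chr12:104286920-104286948, minus strand: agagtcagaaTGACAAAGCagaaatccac

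KEAP1 has windows at 2 RefSeq starts, and both of its matches belong to the downstream start (position 10502771), so they lie inside the gene as the count files annotate it. The plus-strand match lies 23 to 31 bases before that start and the other 46 to 54 bases before it. The match of GCLM lies 26 to 34 bases before its RefSeq start and holds the same 9 letters, TGACTAAGC, as the plus-strand match of KEAP1. In TXNRD1 the first match lies 91 to 99 bases before the upstream start, the second overlaps that start, and the third lies 94 to 102 bases before a downstream start inside the gene. No match overlaps the AP-1 letters TGANTCA, which resemble those of an ARE. No match was found in the windows of NFE2L2, NQO1, GCLC and SRXN1, which says only that these letters are not in 300 bases around the start. The core is common, with a match in 13.3% of all 35116 windows and 16.1% of all 27305 genes with a window, and in 21 of the 76 genes with a window in the wider pathway list used below. A match is a description of the sequence and not a binding site, since binding was not measured. Of the 3 genes with a match, KEAP1 and TXNRD1 fell with CPI-455 and GCLM did not pass the test in the main setting. Among genes with a window but no match, SRXN1 also fell, NFE2L2 rose, and NQO1 and GCLC did not pass it. Of those without a window, SLC7A11 fell by at least 2-fold and HMOX1 by less. A link between match and change was not tested.

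The vehicle libraries held 19623553 and 20690819 counted fragments and the CPI-455 libraries 9522920 and 5401588. A count of 3 fragments stood for 0.142 and 0.137 counts per 1000000 (CPM) in the vehicle libraries, and for 0.337 and 0.593 CPM in those with CPI-455. The CPI-455 libraries also stood apart in their composition, with MALAT1, a nuclear non-coding RNA, taking 4.95% and 6.49% of the fragments against 0.114% and 0.0884% with vehicle. The pair with CPI-455 was less alike (Pearson r = 0.946 across genes, log2 CPM) than the pair with vehicle (r = 0.993), and genes are not independent replicates. Of 10 markers of prostate luminal cells, 5 were above 10 CPM in every library and none was under 1 CPM in all. Their summed level was 959 and 884 CPM with vehicle and 386 and 443 CPM with CPI-455. KLK3 was the largest part with vehicle, at 402.9 and 356.5 CPM, against 107.0 and 135.3 CPM. Not all of them fell, and KLK2 was at 84.0 and 64.3 CPM with vehicle and 108.1 and 111.2 CPM with CPI-455. Of 10 markers of immune, stromal, endothelial and basal cells, 6 were under 1 CPM in every library and KRT5 was at 0 in all. The sum of the 10 lay between 4.52 and 5.48 CPM for vehicle and between 11.9 and 12.3 CPM for CPI-455. Most of it was COL1A1, at 4.96 and 4.02 CPM with vehicle and 10.1 and 7.72 CPM with CPI-455. In bulk RNA, fewer cells of a type and less RNA per cell cannot be told apart. Library size, MALAT1 share and these sums move with the treatment in every comparison made here, and their part in the results was not tested.

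Expression with CPI-455 was compared with vehicle in edgeR's quasi-likelihood test over all tested genes, with Benjamini-Hochberg adjustment (FDR). Where 1 library was left out, the spread came only from the group that kept both of its libraries, and the lone library was assumed to vary like them. A gene was called where its FDR was below 0.05 and its change at least 2-fold, and log2 fold changes are CPI-455 over vehicle, with their standard error (SE). Of the 9 genes, 4 were called lower, against 21.3% of all tested genes, and 0 were called higher, against 21.0%. Without the minimum fold, 5 of the 9 had a lower level and 1 a higher level at an FDR below 0.05, against 32.8% and 29.8% of all tested genes. The groups did not overlap for 8 of the 9 genes, but this held for 81.9% of all tested genes. The median log2 fold change of the 9 genes was -0.95, with a range from -2.60 to 0.70, while that of all tested genes was -0.04 and their quartiles were -0.96 and 0.94.

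**Figure D1:**
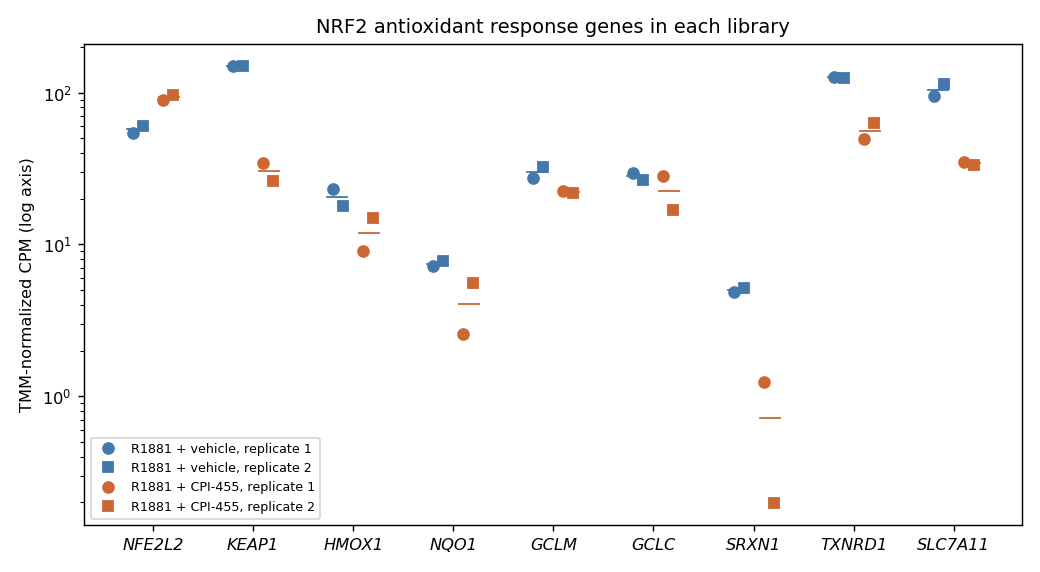
TMM-normalized CPM (log axis) of the 9 NRF2 antioxidant response genes in each of the 4 libraries, with circles for replicate 1, squares for replicate 2 and a horizontal line for the mean of each group. NFE2L2 is the gene whose CPI-455 libraries both lie above vehicle, GCLC is the gene whose groups overlap, and SRXN1 reaches the lowest level, 0.198 CPM.

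NFE2L2 encodes NRF2 itself, the activator of the response, and lies on the minus strand of chromosome 2 (ENSG00000116044, chr2:177227595-177392697, GRCh38). Its normalized level was 54.3 and 60.3 CPM in the vehicle libraries (1149 and 1320 fragments) and 89.8 and 96.5 CPM in the CPI-455 libraries (800 and 488 fragments). Both CPI-455 libraries lay above both vehicle libraries. The mean rose from 57.3 ± 4.26 to 93.1 ± 4.80 CPM (SD, n = 2 per group), a log2 fold change of 0.70 (SE 0.13, edgeR FDR 0.00115). The rise of 1.62-fold stayed under the 2-fold limit, and after removal of a trend with exon length and GC content from each library it was 1.09 on the log2 scale and past it. Of its exon bases, 20.9% are shared with other genes, AGPS on the opposite strand among them, and fragments on such bases were not counted for either gene. AGPS itself had 1806 and 2037 fragments in the vehicle libraries, against 257 and 149 with CPI-455. These are raw counts, not scaled for the smaller size of the CPI-455 libraries.

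KEAP1, the adaptor that delivers NRF2 to its ubiquitin ligase, lies on the minus strand of chromosome 19 (ENSG00000079999, chr19:10486120-10503741) and shares no exon bases with another gene. Its level was 149.3 and 150.1 CPM with vehicle (3162 and 3286 fragments) and 34.2 and 26.3 CPM with CPI-455 (305 and 133 fragments). The vehicle libraries were nearly equal and both CPI-455 libraries were far below them. The mean fell 4.88-fold, from 149.7 ± 0.536 to 30.3 ± 5.59 CPM (SD, n = 2), a log2 fold change of -2.29 (SE 0.15, edgeR FDR 2.46e-06). Leaving out any 1 library kept it between -2.53 and -2.17.

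The sensor and the factor therefore moved in opposite directions at the mRNA level. Per kilobase of exon, KEAP1 was the more abundant of the pair with vehicle, at 4.37 and 3.96 times the level of NFE2L2 in the 2 libraries. With CPI-455 the ratio was 0.606 and 0.433, so NFE2L2 mRNA was the more abundant in both libraries.

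Other partners and regulators of NRF2 were taken from a written list of 14 genes, all of them tested. Of these, 8 were called lower and 0 higher, against 21.3% and 21.0% of all tested genes, and 6 were not called, with a median log2 fold change of -1.40 against -0.04 for all tested genes. The repressors BACH1 and BACH2, which occupy AREs in place of NRF2, were both lower, at -2.24 (SE 0.14, FDR 1.83e-06) and -1.86 (FDR 6.14e-05). BACH1 had 112.9 and 123.7 CPM with vehicle and 25.1 and 24.9 CPM with CPI-455. Both relatives of NRF2, NFE2L1 and NFE2L3, were also lower, and NFE2L1 had 378.4 and 342.7 CPM with vehicle and 73.4 and 64.7 CPM with CPI-455, a log2 fold change of -2.38 (SE 0.13, FDR 9.54e-07). NFE2L3 changed by -1.22 (FDR 6.37e-04).

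The genes that help to destroy NRF2 were lower in part. CUL3, the scaffold of the KEAP1 ligase, had 91.9 and 97.3 CPM with vehicle and 34.7 and 28.5 CPM with CPI-455, a log2 fold change of -1.57 (SE 0.15, FDR 1.72e-05). RBX1, the RING subunit of the same ligase, was not called, with 29.8 and 25.6 CPM against 61.7 and 45.7 CPM, a log2 fold change of 0.97 (FDR 0.00127). It was near the 2-fold limit and was called higher in 6 of the 15 alternatives, at up to 1.16. The kinase GSK3B and the substrate receptor BTRC act in a second, KEAP1-independent route of NRF2 degradation, and they fell by 1.88 and 2.14 on the log2 scale (FDR 9.97e-06 and 3.17e-06). PALB2, a DNA repair protein that can bind KEAP1, fell by 1.62 (FDR 1.29e-04). Other KEAP1-binding proteins were not called, SQSTM1, an autophagy receptor, at -0.86 (FDR 1.76e-04) and the peptidase DPP3 at -0.32 (FDR 0.305). None of the small MAF partners of NRF2 was called, with MAFF at 0.98 (FDR 0.0300), MAFG at -0.26 (FDR 0.130) and MAFK at -0.12 (FDR 0.633). MAFF was near the limit and was called higher in 4 of the 15 alternatives, one of them without CPI-455 replicate 1 (1.29).

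**Figure D2:**
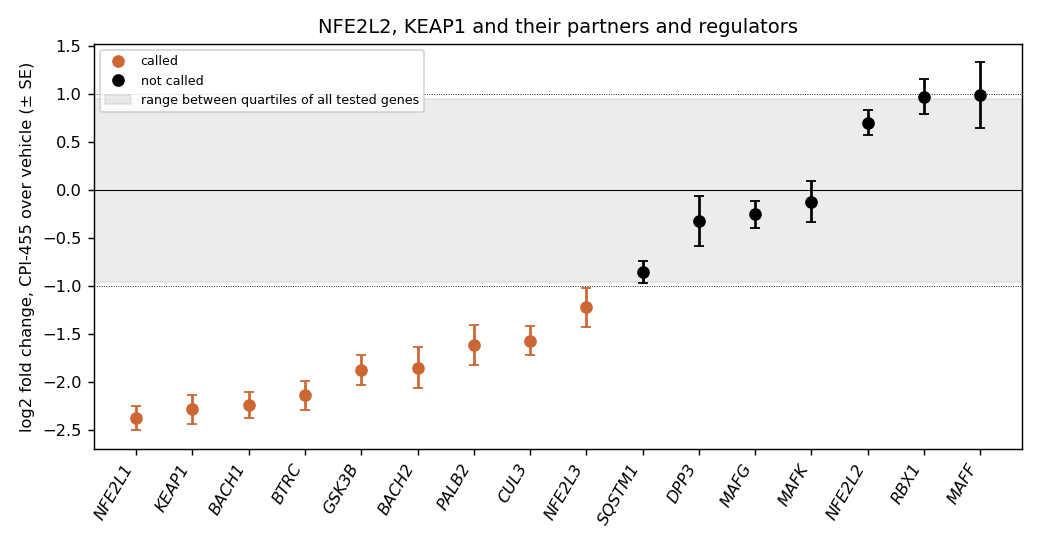
Log2 fold change (CPI-455 over vehicle, error bars ± SE) of NFE2L2, KEAP1 and 14 listed partners and regulators, ordered by value, with dotted lines at 2-fold and a grey band for the range between the quartiles of all tested genes. KEAP1 at -2.29 and 8 of the 14 listed genes lie below the 2-fold line, and NFE2L2, RBX1 and MAFF lie on the positive side without being called.

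SLC7A11 is the cystine transporter subunit (xCT) that brings in the cysteine for glutathione, and lies on the minus strand of chromosome 4 (ENSG00000151012, chr4:138164097-138242349). Its level was 94.9 and 114.0 CPM with vehicle (2010 and 2496 fragments) and 35.1 and 33.4 CPM with CPI-455 (313 and 169 fragments). Both CPI-455 libraries lay at close to the same level, well under vehicle. The mean fell 3.04-fold, from 104.5 ± 13.5 to 34.3 ± 1.19 CPM (SD, n = 2), a log2 fold change of -1.61 (SE 0.15, edgeR FDR 1.50e-05). An antisense gene, SLC7A11-AS1, shares 8.97% of its exon bases and had 5 to 16 fragments in a library, and reads of the pair cannot be told apart by strand.

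The 2 subunits of glutamate-cysteine ligase, the enzyme of the first step of glutathione synthesis, did not pass the test in the main setting. The catalytic subunit GCLC (ENSG00000001084, chr6:53497341-53616970, minus strand) had 29.3 and 26.7 CPM with vehicle and 28.3 and 16.8 CPM with CPI-455. One CPI-455 library lay within the vehicle range and the other below it, so the groups overlapped. The log2 fold change was -0.28 (SE 0.23, edgeR FDR 0.312), with -0.03 without CPI-455 replicate 2 and -0.76 without CPI-455 replicate 1. The modifier subunit GCLM (ENSG00000023909, chr1:93885205-93909456, minus strand) had 27.4 and 32.5 CPM with vehicle and 22.3 and 21.8 CPM with CPI-455. Here the groups did not overlap, but the log2 fold change of -0.44 (SE 0.18) had an FDR of 0.0518. The edgeR FDR of GCLM was 0.0107 with scaling by library totals (-0.63) and 0.0187 without the filter (-0.60). It was 0.211 with upper-quartile scaling. For both subunits the sign turned, to 0.18 and 0.04, when the trend on length and GC content was removed. Per kilobase the modifier exceeded the catalytic subunit in every library, by 1.46 and 1.90 times with vehicle and 1.23 and 2.02 times with CPI-455.

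TXNRD1 is the cytosolic selenoenzyme that reduces thioredoxin with NADPH, and lies on the plus strand of chromosome 12 (ENSG00000198431, chr12:104215779-104350305) with no shared exon bases. Its level was 125.8 and 125.7 CPM with vehicle (2664 and 2752 fragments) and 49.1 and 62.9 CPM with CPI-455 (438 and 318 fragments). The vehicle libraries were equal within their counting error and both CPI-455 libraries were lower. The mean fell 2.26-fold, from 125.8 ± 0.0806 to 56.0 ± 9.74 CPM (SD, n = 2), a log2 fold change of -1.18 (SE 0.14, edgeR FDR 8.78e-05). With the trend on length and GC content removed, the change was -0.81 and under the 2-fold limit.

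SRXN1, sulfiredoxin, repairs peroxiredoxins whose active cysteine has been over-oxidised, and lies on the minus strand of chromosome 20 (ENSG00000271303, chr20:646615-653370). It was the gene with the fewest fragments of the 9, 103 and 113 in the vehicle libraries against 11 and 1 with CPI-455. These give 4.87 and 5.16 CPM with vehicle and 1.23 and 0.198 CPM with CPI-455, so both CPI-455 libraries were lower and they differed from each other. The single fragment has a 95% Poisson interval of 0.0253 to 5.57 fragments and the 11 fragments one of 5.49 to 19.7, which cover counting error only. The fitted log2 fold change was -2.60 (SE 0.58, edgeR FDR 0.00370), with -4.63 without CPI-455 replicate 1 and -2.06 without CPI-455 replicate 2. Of its exon bases, 85.0% are shared with an unnamed gene on the same strand (ENSG00000270299, 0 to 11 fragments), so most fragments of SRXN1 were not counted and its level is understated in all libraries. The 3 genes whose profile over the 4 libraries was closest to that of SRXN1 were S1PR5, FAM13C and TGFB2, at distances of 0.0788, 0.0841 and 0.114 in centred log2 CPM. These distances rest in part on the 11 and 1 fragments of SRXN1 with CPI-455, so the likeness is imprecise.

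HMOX1, haem oxygenase 1, opens the haem ring, and lies on the plus strand of chromosome 22 (ENSG00000100292, chr22:35380361-35394214). It had 23.1 and 18.0 CPM with vehicle (489 and 394 fragments) and 9.09 and 14.8 CPM with CPI-455 (81 and 75 fragments). The groups did not overlap, but the replicates of each group were far apart. The mean fell from 20.6 ± 3.61 to 12.0 ± 4.07 CPM (SD, n = 2), a log2 fold change of -0.82 (SE 0.27, edgeR FDR 0.0243), which is under the 2-fold limit. The FDR was 0.0651 with upper-quartile scaling and 0.220 without vehicle replicate 1, so the test was then not passed. The change was -1.22 and called without CPI-455 replicate 2, where the spread comes from the vehicle pair alone, and -0.49 without CPI-455 replicate 1.

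NQO1, the quinone reductase most often read as a sign of NRF2 activity, lies on the minus strand of chromosome 16 (ENSG00000181019, chr16:69706996-69726951). It had 7.18 and 7.77 CPM with vehicle (152 and 170 fragments) and 2.58 and 5.54 CPM with CPI-455 (23 and 28 fragments). Both CPI-455 libraries were lower, but the higher of them was closer to vehicle than to its own replicate. The log2 fold change was -0.95 (SE 0.39) with an edgeR FDR of 0.0577, so the test was not passed in the main setting. NQO1 was called with scaling by library totals (-1.14, edgeR FDR 0.0287) and without the filter (-1.11, edgeR FDR 0.0241). With upper-quartile scaling the FDR was 0.114. Without CPI-455 replicate 2 the change was -1.58 and called, again with the spread of the vehicle pair alone, and without CPI-455 replicate 1 it was -0.45.

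**Figure D3:**
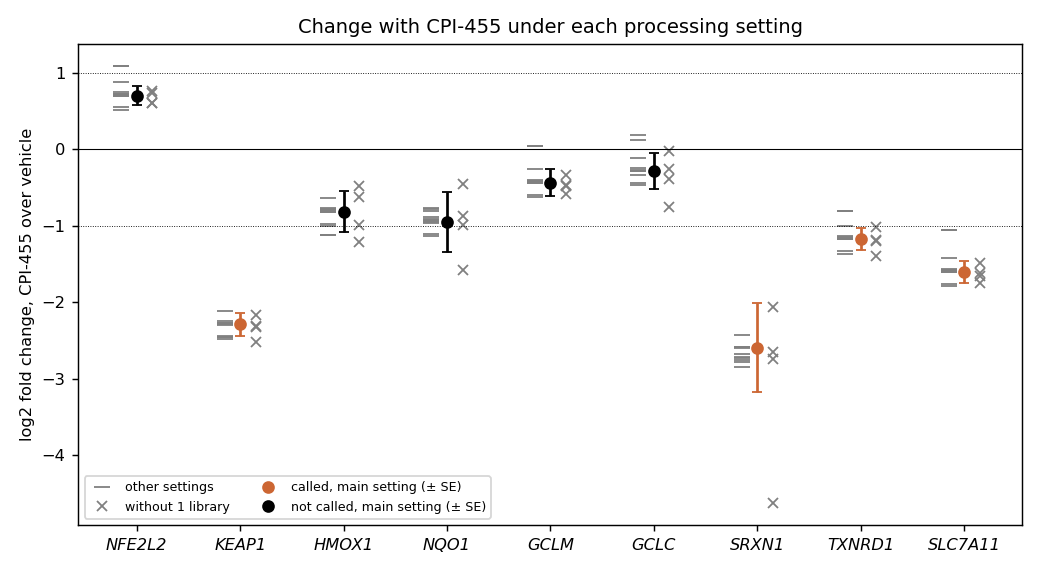
Log2 fold change (CPI-455 over vehicle) of the 9 genes, with dots and bars for the reported value ± SE, dashes for the other processing settings and crosses for fits without 1 library; dotted lines mark 2-fold. KEAP1, SLC7A11 and SRXN1 stay below zero by more than 1 throughout, and SRXN1 spreads to -4.63. GCLM and GCLC lie below zero except where the length and GC trend was removed.

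Between genes, levels were compared as fragments per kilobase of exon and 1000000 fragments (RPKM). With vehicle KEAP1 stood first at 39.8 ± 0.143, followed by TXNRD1 at 18.8 ± 0.0120 (SD, n = 2). SLC7A11 (10.8 ± 1.40), NFE2L2 (9.58 ± 0.713) and HMOX1 (8.54 ± 1.499) came next, and each overlapped its neighbour in the order. GCLM at 5.53 ± 0.657, GCLC at 3.31 ± 0.218 and NQO1 at 2.30 ± 0.127 followed without overlap. SRXN1 was left out of the order, since 85.0% of its exon bases could not be counted, and its 1.86 ± 0.0778 RPKM over all its bases is not comparable. The levels of NFE2L2 and NQO1 are also understated, with 20.9% and 17.7% of their bases shared, so the place of NFE2L2 beside SLC7A11 is uncertain.

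With CPI-455 the order changed at the top, where NFE2L2 stood first at 15.6 ± 0.802 RPKM. TXNRD1 (8.35 ± 1.45) and KEAP1 (8.05 ± 1.49) came next and overlapped, then HMOX1 (4.97 ± 1.69) and GCLM (4.07 ± 0.0738), which also overlapped. SLC7A11 at 3.55 ± 0.123 RPKM was now below GCLM, and GCLC at 2.66 ± 0.957 and NQO1 at 1.25 ± 0.643 closed the order.

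The rest of the pathway was read from a written list of 94 genes, which includes the 14 regulators above. Of these, 93 were matched and 83 tested, and 16 were called higher (19.3%) and 14 lower (16.9%), against 21.0% and 21.3% of all tested genes. Their median log2 fold change was 0.02, against -0.04 for all tested genes. Both shares were near those of all tested genes, but the groups of the list differed. The regulators held 8 of the 14 lower calls and 0 of the higher ones. Some other groups held only higher calls.

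Among 11 genes of glutathione synthesis and turnover, 2 were called higher (18.2%) and 1 lower (9.09%), against 21.0% and 21.3% of all tested genes. Glutathione synthetase, GSS, which joins glycine in the last step, had 51.2 and 59.9 CPM with vehicle and 112.5 and 115.7 CPM with CPI-455, a log2 fold change of 1.04 (SE 0.13, FDR 1.06e-04). The glutaredoxin GLRX rose by 1.19 (FDR 0.0125). CHAC1, which degrades glutathione and is known as a target of ATF4, had 636 and 594 fragments with vehicle, against 14 and 18, a log2 fold change of -3.60 (SE 0.32, FDR 1.42e-05). SLC3A2, the heavy chain that pairs with SLC7A11 in the cystine transporter, was not called at -0.53 (FDR 0.00195).

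The glutathione transferases, which attach glutathione to electrophiles, held 4 called higher and 0 lower of 11 tested, against 21.0% and 21.3% of all tested genes, with a median of 0.79. GSTM2 had 22.3 and 20.0 CPM with vehicle and 83.8 and 78.1 CPM with CPI-455, a log2 fold change of 1.94 (SE 0.14, FDR 4.84e-06). GSTO1, GSTK1 and MGST2 rose by 1.35, 1.18 and 1.10 (FDR 1.19e-04, 1.03e-04 and 8.07e-04). GSTM2 belongs to a family of near-identical neighbours, between which fragments could have been lost or split. GSTP1, which is known for silencing by promoter methylation in LNCaP, had 1325 and 1590 fragments with vehicle, against 976 and 425, a log2 fold change of 0.53 that was not called. Silencing would leave few fragments of it, and the identity of the cells was checked here only by the marker lists above. None of the 4 tested glutathione peroxidases was called, against 21.0% of all tested genes called higher and 21.3% lower. GPX4, which reduces lipid peroxides, was at 0.87 (FDR 1.03e-04) and GPX1 at -0.72 (FDR 0.00241). GPX1 was at -1.41 and called lower with the trend on length and GC content removed.

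In the thioredoxin group, 2 of 11 genes were called higher (18.2%) and 0 lower, against 21.0% and 21.3% of all tested genes. The median of the group was 0.55. TXN, the thioredoxin that TXNRD1 reduces, had 140.1 and 138.5 CPM with vehicle and 448.4 and 489.2 CPM with CPI-455, a log2 fold change of 1.75 (SE 0.11, FDR 2.07e-06). TXNIP, the protein that binds and inhibits thioredoxin, rose by 2.06 (SE 0.19, FDR 1.54e-05), from 8.31 and 8.54 to 36.9 and 33.4 CPM. Of the peroxiredoxin family, the abundant members PRDX6 and PRDX2 were not called at 0.32 and -0.22.

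**Figure D4:**
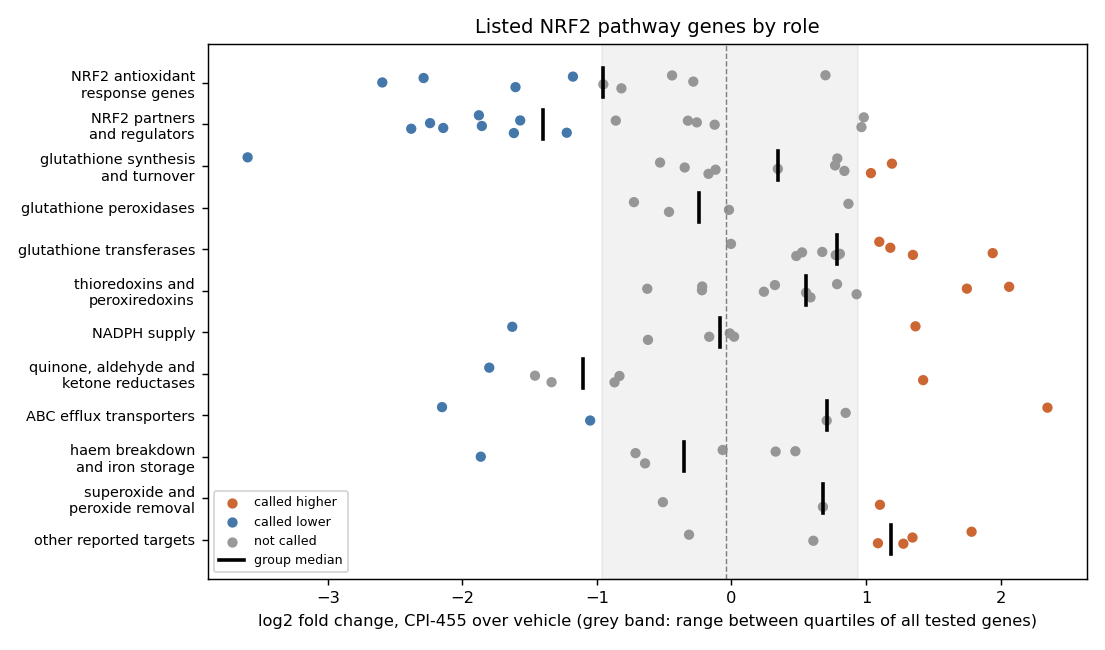
Log2 fold change (CPI-455 over vehicle) of each tested gene of the 9 and of the wider list, by role, with a black bar for the median of each group, a dashed line for the median of all tested genes and a grey band for the range between their quartiles. The regulators and the 9 genes have medians of -1.40 and -0.95, and the transferases and other reported targets medians of 0.79 and 1.18.

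In the group of NADPH supply, which feeds both TXNRD1 and NQO1, IDH1, the cytosolic isocitrate dehydrogenase, fell by 1.63 (SE 0.14, FDR 1.05e-05). Of the reductases and conjugating enzymes, 6 of 11 were tested. Among these, 1 was called higher and 1 lower (16.7% each), against 21.0% and 21.3% of all tested genes. NQO2, the relative of NQO1, rose by 1.43 (SE 0.15, FDR 3.43e-05), from 20.6 and 22.8 to 58.1 and 58.2 CPM, and so was called while NQO1 was not. The carbonyl reductase CBR1 fell by 1.80 (SE 0.20, FDR 4.51e-05), with 18.9% of its exon bases shared with an antisense gene.

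Of 5 tested ABC efflux transporters, 2 were called lower (40.0%) and 1 higher (20.0%), against 21.3% and 21.0% of all tested genes. ABCC4 fell by 2.15 (FDR 2.88e-06) and ABCC1 by 1.05 (FDR 9.51e-05), both exporters of conjugates. ABCB6, a porphyrin transporter, rose by 2.35 (SE 0.29, FDR 8.83e-05), with 54.5% of its exon bases shared with ATG9A. Of 6 genes of haem breakdown and iron storage, which act beside HMOX1, 1 was called lower (16.7%) and 0 higher. These shares stood against 21.3% and 21.0% of all tested genes. The called gene was SLC48A1, a haem transporter, at -1.86 (FDR 4.25e-04), and the ferritin chains FTH1 and FTL were at -0.64 and -0.06. FTL was at -1.01 and called lower with the length and GC trend removed and the replicate block added. SOD1, which removes superoxide, rose by 1.10 (FDR 6.77e-05), and catalase, CAT, was not called at 0.68. Of 6 other reported targets, 4 were called higher and 0 lower, against 21.0% and 21.3% of all tested genes. These were PIR, LRP8, TRIM16L and UCHL1, at 1.79, 1.35, 1.28 and 1.09.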

How the data were processed

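RNA-seq libraries of 4 LNCaP cultures were used, 2 with R1881 and vehicle and 2 with R1881 and CPI-455, grouped by their labels. The DMSO concentration of the vehicle differs between the labels and the study's methods. The authors trimmed reads with Trim Galore and cutadapt, aligned them with STAR to GRCh38 and used featureCounts v1.5.0-p1 to count fragments on exons of Ensembl 83. The deposited values are raw counts per gene and library, without strand. Fragments that aligned to several places or lay on several genes were not counted. Biological replicates are stated but their source cultures are not described further, so p-values measure the spread between these samples.

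Counts were fitted in edgeR 4.0.16 (R 4.3.3) with filterByExpr (minimum count 10), TMM (factors 0.936 to 1.08), glmQLFit and glmQLFTest without covariates, and p-values were adjusted over 17600 genes. CPM are scaled by TMM, RPKM divide them by the exon length of the files, and SE is the log2 fold change divided by the root of F. Symbols were matched for 56558 genes. Alternatives were RLE, upper-quartile and total scaling, TMM without mitochondrial genes and MALAT1, leaving out the filter or asking for 10 counts in each library, edgeR's likelihood-ratio test, DESeq2 1.42.0, a replicate block, removal of a trend with exon length and GC content (mgcv 1.9.3), alone or with the block, each library left out, and no minimum fold. The members and lists were chosen with earlier results of these data known. Named genes are the 9 members, all tested regulators, and in each other group up to 4 called genes per direction and the 2 most expressed genes not called. Genes of likest profile were named for the called member with the largest change. Protein sequences were not used here, and some results of the wider list are not reported here.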

Additional observations from a re-analysis of the deposited data

How the results depend on the processing

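KEAP1 and SLC7A11 kept their call under all 15 alternatives, and SRXN1 under the 14 in which it was tested. It had under 10 counts in a library, so a minimum of 10 in every library left it out and gave 3 genes called lower in place of 4. The number called lower was 6 with scaling by library totals, 5 without the filter and 5 without a minimum fold, and 4 to 6 when 1 library was left out, with 6 without CPI-455 replicate 2 through HMOX1 and NQO1. Removing the length and GC trend gave 4, with HMOX1 in (-1.12) and TXNRD1 out (-0.81), and 1 called higher, NFE2L2 (1.09). GCLM and GCLC then turned to 0.040 and 0.18, and with the replicate block added to 0.042 and 0.12, where 1 gene was also called higher. Without a minimum fold, 1 of the 9 was higher, and of the wider list 34 were higher and 24 lower. Scaling moved the median of all genes by 0.175 (upper quartile) and -0.191 (library totals), the latter with 40.6% of calls higher against 49.6%, and upper quartile with 58.1%. The other causes were not tested.

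Same-numbered replicates share only a number, and their deviations from the group means correlated at 0.04. The replicate block left 4 genes called lower and 0 higher, and 7167 of all genes called against 7454. In the wider list, GSS and SOD1 were called in 9 of 15 alternatives, UCHL1 in 10, ABCC1 in 11, GLRX in 12, NFE2L3, GSTO1 and MGST2 in 13, and GSTK1 in 14. Of the named genes not called, RBX1 was called in 6, MAFF in 4, SQSTM1, GPX1 and FTL in 2 and GPX4 in 1. With 2 libraries a group and 5401588 fragments in the smallest, changes of SRXN1 and NQO1 are the least precise of the 9.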
